A study of Mus musculus with 136 samples.

Results

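The genes described here are the olfactory receptor genes of mouse chromosome 9, defined as protein-coding genes whose symbol starts with Olfr. They numbered 130 of 21887 protein-coding genes on the chromosomes used, and 130 of 1110 genes with such symbols. The set was read from the RefSeq annotation of mm10 (GRCm38.p6), and Olfr911-ps1, which carries a pseudogene suffix but is annotated as protein-coding, was kept. Each gene was given a window made of its body and 2500 bp on each side, and the windows were compared with 10 deposited lists of ChIP-seq peaks or regions from mouse embryonic stem cells (line E14JU, serum and LIF). The SUZ12 lists came from crosslinked, sonicated chromatin of MCM2-2A clones 439 and 442, which carry point mutations in the histone-binding domain of the replicative helicase subunit MCM2, and of WT clone 410. Each SUZ12 list combined 3 replicates of 1 clone, with a Drosophila spike-in. The remaining 7 lists held histone marks of WT clone 410 only, from native ChIP of MNase-digested chromatin, also with a Drosophila spike-in. They came from an original experiment (H3K27me3, H3K9me3, H3K4me3 and H3K27ac, 2 replicates each) and from a rescue experiment (H3K27me3, H3K9me3 and H3K4me3, 3 replicates each). Each genotype thus rests on 2 MCM2-2A clones and 1 WT clone, and marks in MCM2-2A cells were not analysed here.

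Olfactory receptors are G protein-coupled receptors of the nasal sensory neurons, and each neuron expresses a single receptor gene from a large family laid out in tandem clusters. In other cell types, and in the neuron for all receptors but the chosen one, the genes are silent, and in the olfactory epithelium this silence is marked by H3K9me3-type heterochromatin. H3K27me3 is the mark placed by Polycomb repressive complex 2 (PRC2), of which SUZ12 is a core subunit, whereas H3K4me3 and H3K27ac mark active promoters and enhancers.

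The cell type was checked against marker genes. All 8 stem cell genes (Pou5f1, Sox2, Nanog, Esrrb, Zfp42, Tfcp2l1, Dppa4 and Tdgf1) had H3K4me3 and H3K27ac in their windows, where 78.1% and 79.4% of all protein-coding genes had H3K4me3 in the original and rescue lists and 66.1% had H3K27ac. Of 7 genes of mature olfactory sensory neurons, 6 had H3K4me3 in both WT lists and 3 had H3K27ac, so H3K4me3 did not separate these marker sets. Omp, the olfactory marker protein, had H3K4me3 at 16.0-fold and 19.0-fold enrichment in the original and rescue lists and no H3K27ac, and Cnga2, a subunit of the olfactory cyclic nucleotide-gated channel, had neither mark. Replicates were already merged in every list, 1 list per clone and experiment, so their spread is unknown and no difference below was tested. A gene with no entry is one that did not pass the authors' thresholds, which is not the same as no signal.

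The 130 genes lay in 2 clusters. Cluster 1 (chr9:18754692-20336094) held 35 receptor genes over 1.58 Mb, with Olfr24 as its first member and Olfr18 as its last. Cluster 2 (chr9:37711348-40188094) held 95 over 2.48 Mb, with Olfr160 first and Olfr986 last. The clusters were 17.4 Mb apart. Neighbouring gene starts were a median of 39.0 kb apart in cluster 1 and 23.6 kb apart in cluster 2. The genes were short, with a median length of 948 bp, and 105 of them were under 1500 bp, since the receptor is encoded by a single coding exon and many models hold no more than that. Olfr872 had the longest model, at 23752 bp. Zfp317, a zinc finger gene, was the only other protein-coding gene inside cluster 1, and Vwa5a, AW551984 and Tmem225 were those inside cluster 2.

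The stretch upstream of the annotated start could be read for 109 of the 130 genes from the RefSeq promoter table (GRCm38.p6). In 68 of these the model begins at the start codon, so the stretch lies before the coding exon and may not hold the promoter. The 250 bases upstream held a median of 1 CpG in the receptor genes of chromosome 9 and at most 5, against a median of 10 in 17492 protein-coding genes. No CpG was found in 54 of the 109 stretches (49.5%), against 7.36% of all genes. Median GC content was 33.2% in the receptor genes and 55.2% in all genes. The rest of the family was similar. In 835 receptor genes of other chromosomes the median was 1 CpG, 43.7% had none, and median GC content was 34.0%. Stretches are shown for 3 receptor genes whose models do not begin at a start codon, 1 for each chromatin state described below, and for Zfp317 as a neighbour with an H3K4me3-marked start. Olfr147 (chr9:38401461-38401710, plus strand) lay wholly under H3K9me3 in both WT lists. Olfr902 (chr9:38448542-38448791, plus strand) lay wholly under H3K27me3 in both. Olfr985 (chr9:40128040-40128289, minus strand) was in no list, and 96.8% and 78.4% of the Zfp317 stretch (chr9:19621841-19622090, plus strand) lay under H3K4me3 in the original and rescue lists. CpG dinucleotides are in capitals.
Olfr147: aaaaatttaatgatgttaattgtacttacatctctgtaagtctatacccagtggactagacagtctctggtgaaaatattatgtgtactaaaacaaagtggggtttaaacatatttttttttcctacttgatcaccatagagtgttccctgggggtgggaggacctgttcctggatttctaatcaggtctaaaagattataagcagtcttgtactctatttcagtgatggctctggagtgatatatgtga
Olfr902: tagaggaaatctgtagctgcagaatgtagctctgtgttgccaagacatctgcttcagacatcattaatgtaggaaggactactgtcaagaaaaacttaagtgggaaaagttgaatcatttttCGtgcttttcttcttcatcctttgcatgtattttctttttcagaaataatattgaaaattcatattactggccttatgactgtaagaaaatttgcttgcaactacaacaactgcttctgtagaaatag
Olfr985: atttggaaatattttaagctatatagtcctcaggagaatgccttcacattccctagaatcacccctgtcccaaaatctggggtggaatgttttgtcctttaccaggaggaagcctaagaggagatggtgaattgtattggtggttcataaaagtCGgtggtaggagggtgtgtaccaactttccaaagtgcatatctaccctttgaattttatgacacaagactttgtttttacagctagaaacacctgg
Zfp317: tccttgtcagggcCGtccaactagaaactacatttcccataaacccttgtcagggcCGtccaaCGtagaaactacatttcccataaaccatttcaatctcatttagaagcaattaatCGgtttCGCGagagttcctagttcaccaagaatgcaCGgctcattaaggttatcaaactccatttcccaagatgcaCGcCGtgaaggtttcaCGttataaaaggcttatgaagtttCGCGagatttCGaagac
The Olfr147 stretch held no CpG, those of Olfr902 and Olfr985 held 1 each, and that of Zfp317 held 13.

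The upstream stretches were also searched on both strands for short sequence motifs. TAATTA, the palindromic core bound by many homeodomain proteins such as Lhx2 and Emx2, was in 27 of 109 (24.8%), against 4.46% of all stretches. TATAAA, the TATA box, was in 46 of 109 (42.2%), against 12.4%. The rest of the family was nearer to these shares than all genes were. Of 835 stretches of receptor genes on other chromosomes, 17.2% held the homeodomain core and 38.9% the TATA box. Matches to the homeodomain core and to the TATA box can share their end bases. Both motifs hold only A and T, and the receptor stretches differ from those of all genes in GC content as given above.

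No receptor gene of chromosome 9 had a SUZ12 peak in its window in any clone. The count was 0 of 130 in MCM2-2A clone 439, 0 of 130 in MCM2-2A clone 442 and 0 of 130 in WT clone 410. Over all protein-coding genes the shares with a peak were 26.2% in clone 439, 27.7% in clone 442 and 22.5% in clone 410. On the other chromosomes 3 of 980 receptor genes had a peak, and these were Olfr94, Olfr95 and Olfr1419 in each of the 3 clones. No SUZ12 peak lay anywhere inside either cluster in the 3 lists, although chromosome 9 held 422 peaks in clone 439, 428 in clone 442 and 344 in WT clone 410. The nearest peak to cluster 2 lay at Nrgn, 158 kb before Olfr160 in clones 439 and 442 and 159 kb before it in clone 410. The nearest to cluster 1 lay at Olfm2, 358 kb beyond Olfr18 in clones 439 and 442 and 389 kb beyond it in clone 410. Genotype therefore could not be compared at these genes, since every count was 0.

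**Figure D1:**
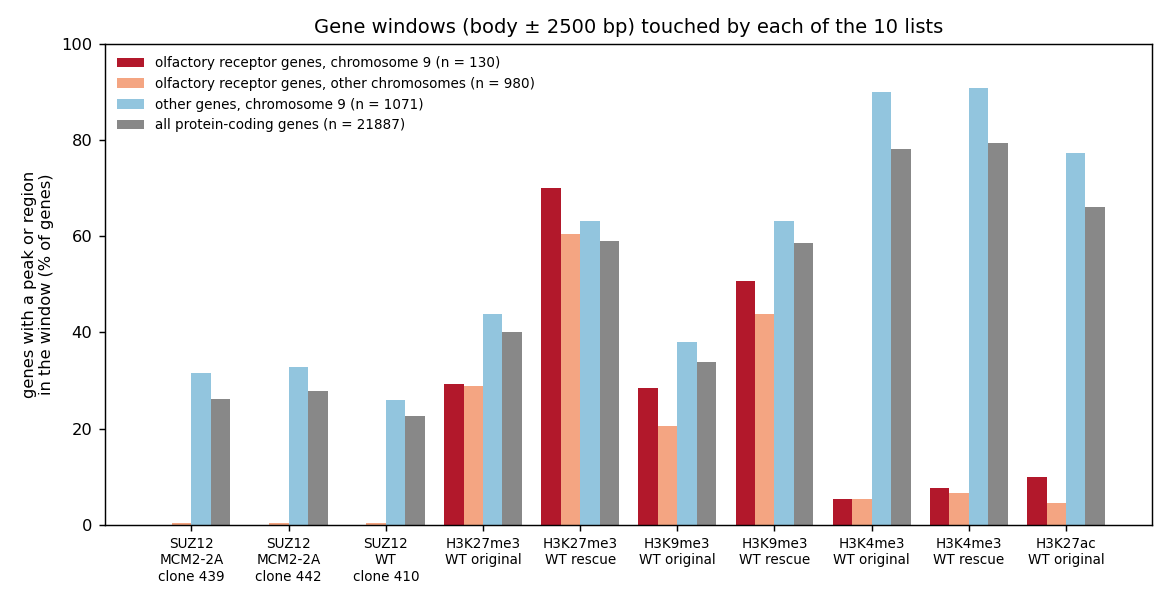
Share of gene windows (body with 2500 bp on each side) with at least 1 bp of a peak or region in each of the 10 lists, for receptor genes of chromosome 9, receptor genes of other chromosomes, other genes of chromosome 9 and all protein-coding genes. The receptor genes of chromosome 9 had no SUZ12 peak in any clone, 5.38% and 7.69% had H3K4me3, and 70.0% had H3K27me3 in the rescue list.

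Active marks were rare. H3K4me3 was in the windows of 7 receptor genes in the original list (5.38%) and of 10 in the rescue list (7.69%), against 78.1% and 79.4% of all protein-coding genes. H3K27ac was in the windows of 13 (10.0%), against 66.1% of all genes. Long genes have more chance to touch a peak, and the median length over all protein-coding genes was 17169 bp. Among genes under 1500 bp, H3K4me3 in the original list was at 4 of 105 receptor genes of chromosome 9 (3.81%), against 353 of 1205 short genes outside the family (29.3%). In the 250 bases upstream, where length plays no part, 1 of 109 receptor genes had H3K4me3 in either list (0.917%), against 66.4% and 67.1% of all genes in the original and rescue lists.

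The H3K4me3 peaks near receptor genes mostly lay outside the gene. The strongest stood 1062 bp from the body of Olfr951 in the original list and 940 bp from it in the rescue list, with fold enrichments of 61.3 and 55.8. A peak near Olfr44, at 2241 bp in the original list and 2318 bp in the rescue list, had fold enrichments of 19.7 and 23.9. Only the peaks of Olfr982 (14.5-fold and 16.2-fold) and Olfr18 (8.01-fold and 11.2-fold) overlapped the gene itself. Those near Olfr926 reached 13.6-fold and 12.7-fold, those near Olfr24 reached 5.41-fold and 5.23-fold, and those near Olfr147 reached 3.89-fold and 3.45-fold. Peaks of 4.48-fold near Olfr972, 4.47-fold near Olfr904 and 3.14-fold near Olfr913 were in the rescue list alone. The 2 experiments thus listed the same 7 receptor genes, and the additional 3 were weak.

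H3K27ac had another order. The strongest H3K27ac peak was 1697 bp from Olfr147, at 21.7-fold, and 5 peaks in all lay in that window. Olfr913 followed at 12.5-fold, Olfr926 at 11.6-fold with 6 peaks, and Olfr923 at 5.23-fold. The strongest peaks of Olfr983, Olfr951, Olfr901, Olfr918, Olfr984, Olfr873, Olfr874, Olfr972 and Olfr894 were between 2.11-fold and 4.16-fold, where the median over the whole list was 3.98-fold. Olfr951, with the strongest H3K4me3, had H3K27ac at 3.82-fold. The Olfr147 peak lay inside a region of H3K9me3 that covered 21.3 kb in the original list and 22.3 kb in the rescue list. Of 34 H3K27ac peaks in cluster 1 and 72 in cluster 2, 1 and 24 touched a receptor window.

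H3K9me3 overlapped a minority of receptor gene bodies in both lists, and most bodies were covered either wholly or not at all. In the original list 37 of 130 windows touched a region (28.5%), against 33.8% of all protein-coding genes. By the rescue list 66 did (50.8%), against 58.7%. With 10000 bp on each side the order was turned, at 56.2% and 82.3% of receptor genes, against 47.8% and 76.8% of all genes. It was turned also among genes under 1500 bp with the 2500 bp windows. There 25.7% and 45.7% of receptor genes of chromosome 9 were touched, against 9.71% and 32.9% of short genes outside the family. Counted by the gene body, at least 50% was covered in 19 receptor genes (14.6%) in the original list, against 1.77% of all genes, and in 35 (26.9%) in the rescue list, against 4.91%. The mean share of the body covered was 15.4% in receptor genes of chromosome 9, 7.40% in receptor genes of other chromosomes and 3.80% in all genes in the original list. It was 27.3%, 16.5% and 9.01% in the same order in the rescue list. Among genes under 1500 bp the means were 16.0% in receptor genes of chromosome 9 and 3.57% in the others in the original list, and 25.3% and 14.0% in the rescue list. Of the 130 bodies, 16 were wholly covered in the original list (12.3%) and 32 in the rescue list (24.6%), against 0.777% and 2.35% of all genes.

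In both WT lists 14 members were covered over 100% of the body, a count not made over all genes. Olfr862, Olfr891, Olfr147, Olfr149, Olfr922, Olfr938, Olfr870, Olfr150, Olfr901 and Olfr860 lay in the widest regions of the original list among these, and the other members were Olfr850, Olfr876, Olfr926 and Olfr936. Olfr862 and Olfr860 lay in regions of 47.7 kb and 11.6 kb in the original list. In the rescue list a single region of 197 kb (chr9:19835670-20032870) held these 2 genes together with Olfr77 and Olfr866, whose bodies had no H3K9me3 in the original list. A further rescue region of 152 kb (chr9:20148270-20299840) held Olfr870, Olfr871, Olfr872 and Olfr39, of which only Olfr870 was covered in the original list. Regions that touched receptor windows were wider than most. Their median width was 11.4 kb in the original list and 10.1 kb in the rescue list, against 3.14 kb and 2.12 kb over the whole lists. Their median strength score stood at percentiles 80.0 and 84.7 of those lists. A wider region is more likely to touch a window, so this choice of regions favours wide ones. Over all regions in the clusters, cut at the cluster ends, the medians were smaller. They were 10.8 kb in cluster 1 and 5.28 kb in cluster 2 in the original list, and 7.47 kb and 4.51 kb in the rescue list.

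**Figure D2:**
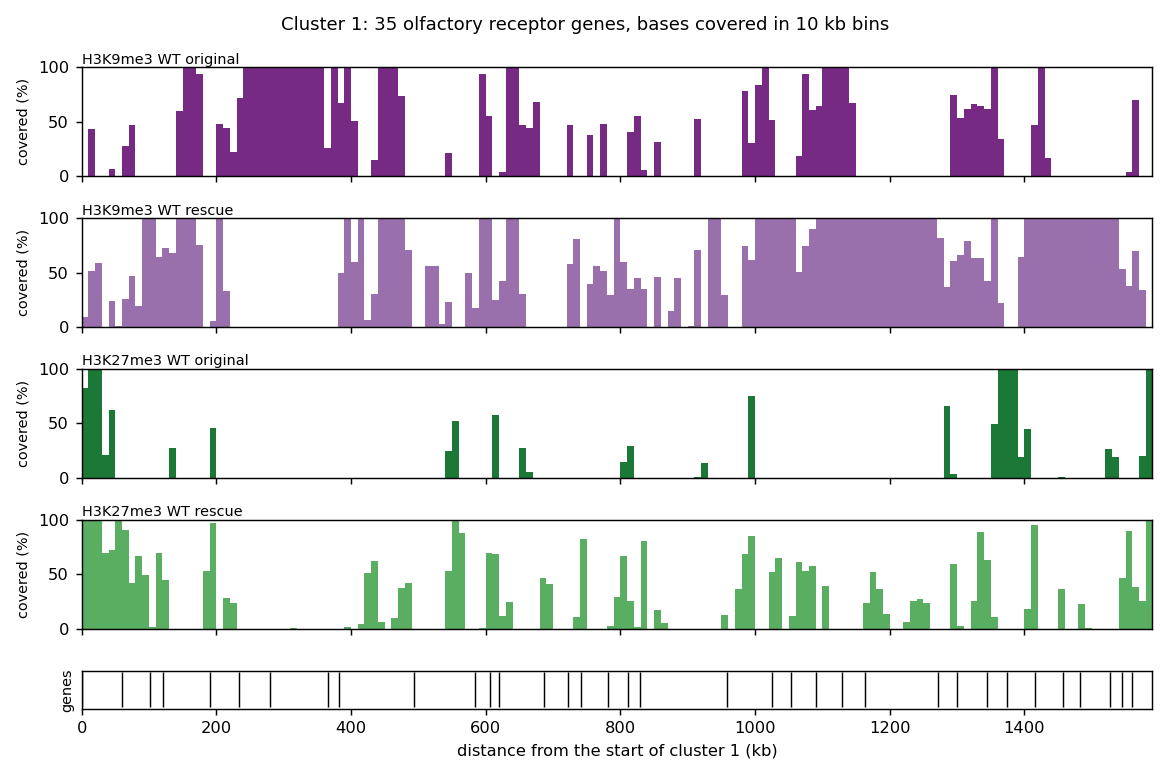
Share of bases covered in 10 kb bins along cluster 1, by distance from its start, in the H3K9me3 and H3K27me3 lists of WT clone 410, with the starts of the 35 receptor genes as ticks. The original H3K9me3 list has a block of 129 kb with no counterpart in the rescue list, and the rescue list has blocks of 197 kb and 152 kb.

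H3K27me3 touched a similar number of receptor windows to H3K9me3 in the original list, and more in the rescue list. It touched 38 windows in the original list (29.2%), against 40.1% of all protein-coding genes, and 91 in the rescue list (70.0%), against 59.0%. With the stronger 50% of the rescue list alone the order against all genes was turned, at 36.9% against 48.4%. The order of the marks also depended on the setting. With the stronger 50% of each list, H3K27me3 touched 18.5% and 36.9% (original and rescue) and H3K9me3 25.4% and 40.8%. With 10000 bp on each side it was 48.5% and 80.0% for H3K27me3, and 56.2% and 82.3% for H3K9me3. H3K27me3 stayed ahead with the gene body alone and with at least 50% of the window covered. At least 50% of the body was covered in 26 receptor genes in the original list, against 9.99% of all genes, and in 70 (53.8%) in the rescue list, against 24.8%. In receptor genes of other chromosomes the shares were 18.1% and 47.1%. Among genes under 1500 bp the mean share of the body covered was 20.2% in receptor genes of chromosome 9 and 11.4% in the others in the original list, and 54.6% and 29.4% in the rescue list. Windows were touched at 30.5% and 68.6% of these short receptor genes in the original and rescue lists, against 17.8% and 38.9% of the others. These H3K27me3 regions thus covered receptor genes with no SUZ12 peak in any clone. In the original and rescue lists 16.2% and 44.6% of receptor bodies were wholly covered, against 5.33% and 12.4% of all genes. The body was wholly covered in both lists at 15 members, among them Olfr951, Olfr967, Olfr968, Olfr969, Olfr974, Olfr948, Olfr902, Olfr911-ps1, Olfr982 and Olfr883. That count was not made over all genes. Olfr951 lay in a region of 35.0 kb in the original list and 39.3 kb in the rescue list, and the H3K4me3 peak near it fell within both. The widest H3K27me3 region at these genes, of 75.3 kb in the rescue list, held Olfr967, Olfr968, Olfr969 and Olfr970.

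The 2 clusters differed in the balance of the marks. Cluster 1 had H3K9me3 over 33.2% of its bases in the original list and 55.0% in the rescue list, cluster 2 over 16.3% and 31.3%, and the whole of chromosome 9 over 8.06% and 17.9%. The 500 kb before and after cluster 1 had 9.67% and 11.7% in the original list, and those of cluster 2 had 4.06% and 4.83%, so cover was higher inside than beside each cluster. The flanks in the rescue list had 22.9% and 22.0% at cluster 1, and 12.3% and 8.85% at cluster 2. H3K27me3 was the reverse between clusters. It covered 8.25% and 22.3% of cluster 1 in the original and rescue lists and 17.6% and 47.0% of cluster 2, against 13.9% and 35.9% of chromosome 9. The flanks before and after cluster 1 had 14.8% and 12.5% in the original list and 32.1% and 23.1% in the rescue list, all above the cluster. At cluster 2 they had 26.5% and 7.32% in the original list, on either side of the cluster's value, and 24.0% and 34.0% in the rescue list, below it. At the level of genes, at least 50% of the body was under H3K27me3 in 3 of 35 members in cluster 1 and 23 of 95 in cluster 2 in the original list, and in 12 and 58 in the rescue list. Under H3K9me3 it was 6 and 13 in the original list, and 14 and 21 in the rescue list.

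Cover was uneven along each cluster. Within cluster 1 the original H3K9me3 list covered 51.9% of the opening 500 kb (Olfr24 to Olfr843), and the rescue list 39.4%. In the stretch from 1000 to 1500 kb (Olfr58 to Olfr872) the order was turned, with 32.4% in the original list and 85.9% in the rescue list. Within cluster 2 the last 2 stretches (Olfr944 to Olfr149 and Olfr965 to Olfr986) had 12.3% and 10.9% under H3K9me3 in the original list and 22.6% and 25.2% in the rescue list. The 3 stretches before them had 16.6% to 23.0% and 35.4% to 37.4%. H3K27me3 in the original list was higher in the later stretches of cluster 2, with 24.8% from Olfr944 to Olfr149, against 12.1% from Olfr160 to Olfr893. This order was not seen in the rescue list, since the stretch from Olfr160 to Olfr893 had 62.0% and that from Olfr944 to Olfr149 had 41.7%.

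**Figure D3:**
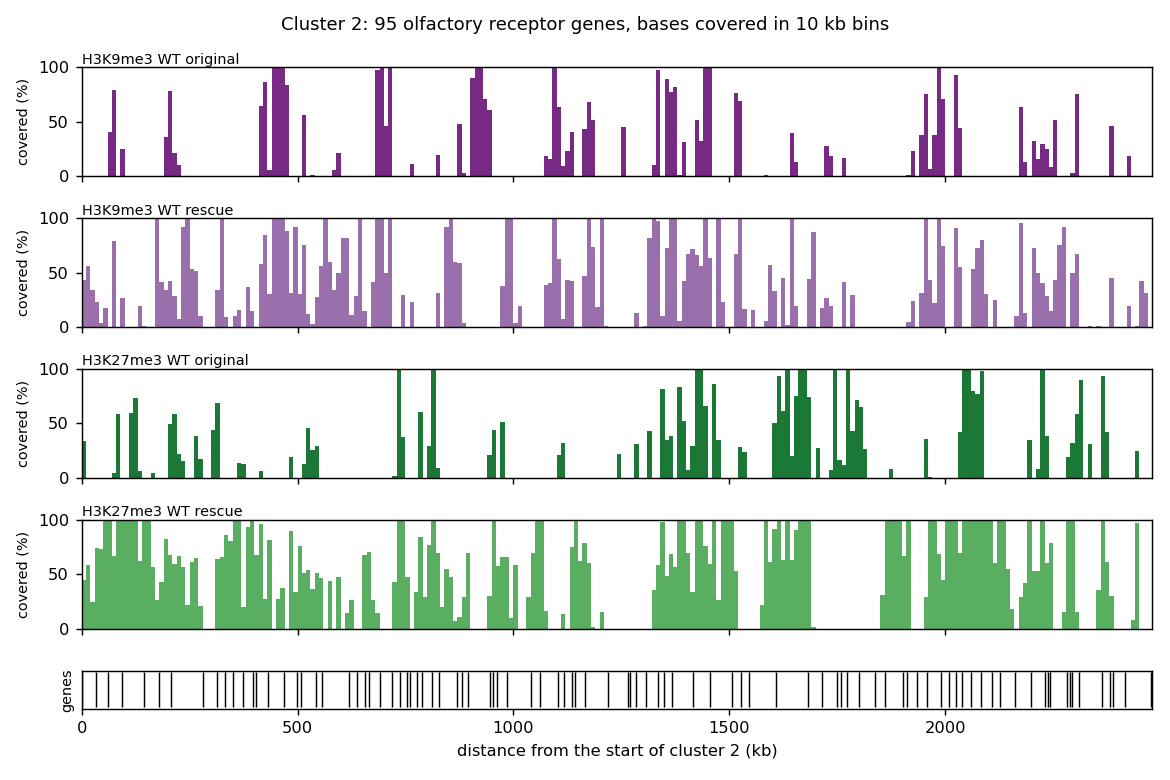
Share of bases covered in 10 kb bins along cluster 2, by distance from its start, in the H3K9me3 and H3K27me3 lists of WT clone 410, with the starts of the 95 receptor genes as ticks. H3K27me3 covers 17.6% of the cluster in the original list and 47.0% in the rescue list, and a stretch of 167 kb with H3K27me3 in the original list is empty in the rescue list.

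The marks lay differently with respect to the genes. H3K27me3 was higher in the receptor windows than between them. In cluster 2 it covered 25.6% of the receptor windows and 14.8% of the rest of the cluster in the original list, and 56.5% and 43.8% in the rescue list. In cluster 1 it covered 10.5% and 7.76% in the original list, and 30.7% and 20.5% in the rescue list. H3K9me3 was lower at the windows, with 18.9% of the windows and 36.3% of the rest in cluster 1 and 13.5% and 17.3% in cluster 2 in the original list. In the rescue list the values were 47.9% and 56.5% in cluster 1, and 24.0% and 33.8% in cluster 2. By distance from the gene's middle, H3K27me3 in cluster 2 covered 24.6% within 1 kb and 15.2% at 10 to 20 kb in the original list, and 59.3% and 45.3% in the rescue list. In cluster 1 it covered 8.19% and 10.4% in the original list, the other way round, and 35.9% and 22.2% in the rescue list. Along all 130 genes H3K9me3 covered 15.0% within 1 kb of the gene's middle and 21.9% at 10 to 20 kb from it in the original list, and 27.5% and 39.8% in the rescue list.

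In the original list H3K9me3 and H3K27me3 were both in the window of 9 receptor genes, H3K9me3 alone in 28, H3K27me3 alone in 29 and neither in 64. The numbers in the rescue list were 46, 20, 45 and 19. H3K9me3 alone was in 21.5% and 15.4% of the windows (original and rescue), against 15.4% and 18.9% of all genes. H3K27me3 alone was in 22.3% and 34.6%, against 21.7% and 19.2% of all genes. Neither mark was in 49.2% and 14.6%, against 44.5% and 22.1%. Both marks were thus in 6.92% of the windows in the original list, against 5.92% of receptor genes on other chromosomes and 18.4% of all protein-coding genes, and in 35.4% in the rescue list, against 27.7% and 39.8%. Both covered at least 50% of the body at Olfr878 and Olfr938 in the original list, and at 12 genes in the rescue list, of which Olfr938 was in both sets. Over all 21887 protein-coding genes the counts were 23 and 306 in the original and rescue lists. Over the 980 receptor genes of other chromosomes they were 4 and 58. By bases, 1.02% of cluster 1 and 1.33% of cluster 2 were under both marks in the original list, and 10.1% and 11.6% in the rescue list, against 0.419% and 5.23% of chromosome 9 in the original and rescue lists. Each mark alone also covered other shares there. Of the H3K9me3 bases, 3.07% in cluster 1 and 8.13% in cluster 2 were under H3K27me3 in the original list, against 8.25% and 17.6% of all cluster bases. In the rescue list it was 18.4% and 37.1%, against 22.3% and 47.0%. None of the 10 lists touched the windows of 12 genes, a count not made over all genes. These were Olfr843, Olfr845, Olfr881, Olfr930, Olfr933, Olfr934, Olfr146, Olfr945, Olfr958, Olfr961, Olfr985 and Olfr986. At the other end, Olfr18, Olfr926 and Olfr951 were each in 6 of the 10 lists.

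**Figure D4:**
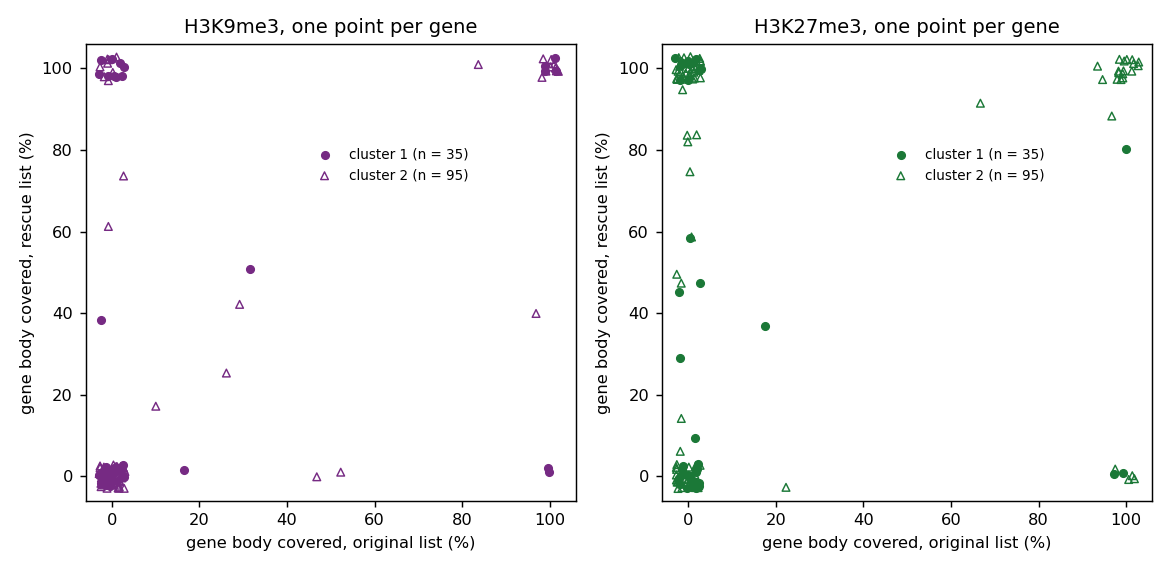
Share of each receptor gene body covered in the original list (horizontal) and the rescue list (vertical) of WT clone 410, for H3K9me3 and H3K27me3, with points shifted by up to 3 percentage points so that those at the same place can be seen. Most genes sit in the corners, and 5 genes wholly under H3K27me3 and 2 wholly under H3K9me3 in the original list are at 0 in the rescue list.

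The 2 experiments on the same WT clone did not list the same genes. Of 19 genes with at least 50% of the body under H3K9me3 in the original list, 15 passed in the rescue list (78.9%), against 81.2% over all protein-coding genes. Of 26 such genes for H3K27me3, 20 passed in the rescue list (76.9%), against 73.6% over all genes. No region of the mark touched the rescue window at 3 of the 19 (15.8%) and 6 of the 26 (23.1%). Over all genes these shares were 8.76% and 20.6%. The rescue lists covered more, so most differences were rescue alone. Bodies wholly covered in a single list, given next, were not counted over all genes. In the rescue list only, 17 bodies were wholly under H3K9me3, among them Olfr829, Olfr846, Olfr58 and Olfr859, and 40 were wholly under H3K27me3, among them Olfr24, Olfr828, Olfr832, Olfr849, Olfr868 and Olfr873. Fewer went the other way. Olfr834 and Olfr835 were wholly under H3K9me3 in the original list and not covered in the rescue list, and Olfr869, Olfr954, Olfr44, Olfr957 and Olfr981 were so for H3K27me3.

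The first of these exceptions was the widest H3K9me3 region at any receptor gene in the original list. It ran for 129 kb (chr9:18987520-19116260), was the 4th widest of 40376 regions in that list, and held Olfr834 and Olfr835. In the rescue list no H3K9me3 region lay in the 172 kb from 18968021 to 19139699, a stretch that also holds Olfr836 and Olfr837. The interval did hold a peak in the rescue H3K4me3 list, where an H3K4me3 peak of 6.49 kb at 57.2-fold in the original list recurred as a peak of 6.46 kb at 50.7-fold in the rescue list, at the same place. That peak lay outside every receptor window. An H3K27ac peak of 7.73 kb at 24.5-fold overlapped it. Of 75 original H3K9me3 regions at least 50 kb wide in the whole genome, 14 had no base in the rescue list, and the median was covered over 99.4% of its length. Among 14 stretches of chromosome 9 of at least 150 kb without rescue H3K9me3, this one had the most original H3K9me3, with 84.3% of its bases, and the next had 20.7%.

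For H3K27me3 the like stretch lay in cluster 2, where no rescue region was listed for 167 kb (chr9:39401501-39568259) around Olfr952, Olfr954, Olfr955, Olfr44, Olfr957 and Olfr958. The original list covered 28.1% of it, in regions of 12.3 kb at Olfr954, 15.5 kb at Olfr44 and 13.2 kb at Olfr957. It was 1 of 17 such stretches among 80 on chromosome 9 in which the original list covered over 20% of the bases. Of 351 original H3K27me3 regions at least 50 kb wide in the whole genome, 96 had no base in the rescue list. The median of them was covered over 99.9% of its length. The cause of neither the H3K9me3 nor the H3K27me3 difference was tested.

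Compared with the other clusters of at least 10 receptor genes, cluster 1 was near the top for H3K9me3. There were 23 such clusters in the genome, and 1, on chromosome 14, lay in a stretch of 21.3 Mb in which none of the 4 H3K9me3 and H3K27me3 lists had a region, although the H3K4me3 lists had 1070 and 1199 peaks there. It was set aside, and leaving out all genes in such stretches moved the all-gene shares of windows touched to 34.4% and 59.6% for H3K9me3 and 40.7% and 60.0% for H3K27me3. Among the remaining 22 clusters, cluster 1 ranked 2 for H3K9me3 in the original list and 3 in the rescue list, and the medians were 13.4% and 33.5%. For H3K27me3 it ranked 16 and 21. Cluster 2 ranked 9 and 13 for H3K9me3 and 7 and 5 for H3K27me3, where the medians were 12.1% and 40.4%.

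**Figure D5:**
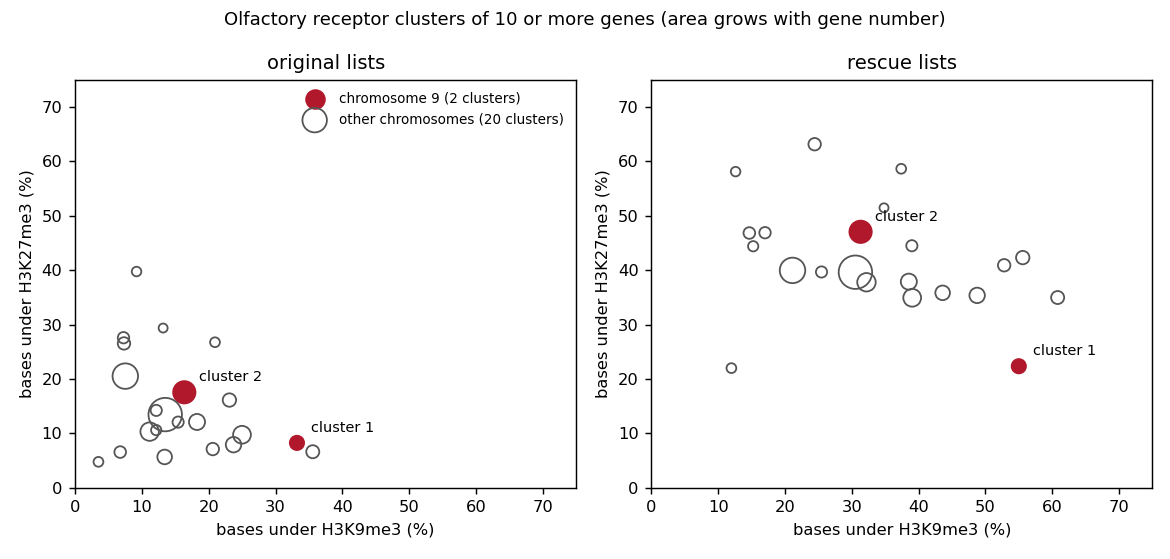
Share of bases under H3K9me3 (horizontal) and H3K27me3 (vertical) in each cluster of at least 10 receptor genes, in the original lists on the left and the rescue lists on the right, with the 2 clusters of chromosome 9 filled and the 20 clusters of other chromosomes open. Cluster 1 has 33.2% and 55.0% under H3K9me3 and little H3K27me3, and cluster 2 sits among the others.

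The protein-coding receptor genes were also set beside the 48 receptor pseudogenes annotated on chromosome 9, which had no SUZ12 peak in any clone either. H3K9me3 touched the windows of 28.5% of the 130 genes in the original list and 50.8% in the rescue list, against 22 pseudogenes (45.8%) and 33 (68.8%). H3K27me3 touched 29.2% and 70.0% of the genes, against 9 pseudogenes (18.8%) and 29 (60.4%). These differences were not tested.

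Of the 4 non-receptor genes inside the clusters, 3 had H3K4me3 in both lists and 2 had H3K27ac. The all-gene shares were 78.1% and 79.4% for H3K4me3 and 66.1% for H3K27ac. Zfp317 had H3K4me3 at 81.4-fold and 103-fold in the original and rescue lists and H3K27ac at 13.5-fold, and Vwa5a had 51.2-fold, 36.7-fold and 5.26-fold. AW551984 had H3K4me3 at 24.1-fold and 40.6-fold with no H3K27ac, and Tmem225 had neither mark. No SUZ12 peak was listed in the 4 windows in any clone.

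Genes that act with the receptors were read in the same way. Of 21 genes of olfactory transduction and receptor choice, SUZ12 was at 8 in MCM2-2A clone 439, 9 in MCM2-2A clone 442 and 9 in WT clone 410, and H3K4me3 was at 19 and 20 in the original and rescue lists. The all-gene shares were 26.2%, 27.7% and 22.5% for SUZ12 and 78.1% and 79.4% for H3K4me3. The genes of transcription factors held the strongest SUZ12 peaks. Lhx2, a homeodomain factor needed for receptor expression, reached 106.3-fold in clone 439, 78.2-fold in clone 442 and 106.2-fold in clone 410. Emx2, another homeodomain factor, reached 95.0-fold, 89.3-fold and 90.9-fold, and Ebf3 reached 101-fold, 74.2-fold and 105-fold. Ebf1, Ebf2 and Ebf4 also had peaks in every clone. Among transduction genes, Adcy3, the olfactory adenylyl cyclase, had SUZ12 at 19.9-fold, 15.0-fold and 14.7-fold, and Gnal, the olfactory G protein alpha subunit, at 41.8-fold, 34.2-fold and 46.6-fold in the same order of clones. Ano2, a calcium-activated chloride channel, had a weak peak in clone 442 (7.17-fold) and clone 410 (5.25-fold) and none listed in clone 439.

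No SUZ12 peak was listed in any clone at the channel genes Cnga2, Cnga4 and Cngb1, at Omp, at the G protein subunit Gng13, at Stoml3, or at Rtp1 and Rtp2, which carry receptors to the cell surface. The window of Rtp1 lay wholly under H3K27me3 in both WT lists, as did those of 6 receptor genes of chromosome 9. The count of such windows was not made over all genes. Rtp2 had H3K9me3 over 97.4% of its window in the original list and 55.5% in the rescue list, and H3K27me3 over 0% and 65.3%. Lhx2 had no H3K27me3 region in either WT list despite its SUZ12 peak, so the H3K27me3 lists do not follow SUZ12 at every gene. The H3K27me3 lists also differed from each other at such genes. They covered 100% and 0% of the Emx2 window in the original and rescue lists, and 0% and 100% of the Ebf3 window. The cofactor Ldb1, the chaperone Ric8b, the stress-response factor Atf5 and the lamin B receptor gene Lbr had H3K4me3 and H3K27ac and no SUZ12. The 9 genes of H3K9 methylation and its readers or partners (Setdb1, Ehmt1, Ehmt2, Suv39h1, Suv39h2, Trim28, Cbx5, Cbx3 and Kdm1a) all had H3K4me3 in both lists and H3K27ac, which 78.1%, 79.4% and 66.1% of all genes had.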

How the data were processed

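ChIP-seq was analysed from 10 deposited lists, made by the authors from 26 of the 136 samples. The authors' processing notes name mm10, the peak caller MACS2 (2.1.0), the aligner BWA (0.7.15), Picard (2.20.7) and cutadapt (2.5). The sources used here do not say which tool made which list, nor how reads that fit several near-identical receptor copies were placed. The SUZ12, H3K4me3 and H3K27ac lists give, as deposited by the authors, a peak score, a fold enrichment (ratio over local background) and −log10 q-values. The H3K9me3 and H3K27me3 lists give, as deposited, strength scores on an unnamed scale, used only to rank regions. Replicates were combined by the authors before deposit, and read depth is unknown, so no interval or test was possible.

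Overlapping regions were merged, and windows (2500 bp, overlap of at least 1 bp) and covered bases were counted with Python 3.11.15, pandas 2.3.3 and numpy 2.4.6, after a check on simulated intervals. Clusters were runs of members with gaps under 500 kb. Members and gene lists were chosen with earlier results of these data known, and the comparisons with short genes, pseudogenes, upstream stretches and empty stretches after seeing these values. Genes were named by a fixed rule (cluster ends, strongest H3K4me3 and H3K27ac, highest and most different cover, widest regions, no list, and the olfactory genes). Its part on protein identity could not be applied. Alternatives were other windows, a minimum of 50% cover, the stronger 50% of each list, equal SUZ12 peak numbers, joined regions and other cluster gaps.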

Additional observations from a re-analysis of the deposited data

How the results depend on the processing

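No paired analysis was possible because each list combines the replicates of 1 clone, and for the same reason no replicate could be left out. Of 79 alternative values for 25 results, 56 stayed within 1.5 times the main value and 23 did not. SUZ12 stayed at 0 receptor genes under every window, minimum and ranking, also with equal numbers of peaks per clone. Changing the largest gap inside a cluster to 200 or 1000 kb gave the same 2 clusters.

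With windows of 10000 bp, shares were 48.5% for original H3K27me3, 56.2% and 82.3% for original and rescue H3K9me3, 15.4% and 21.5% for H3K4me3 and 26.9% for H3K27ac, against 52.0%, 47.8%, 76.8%, 81.9%, 83.4% and 73.4% of all genes. With at least 50% of the window covered, they were 19.2% for original H3K27me3 and 13.8% and 25.4% for H3K9me3, against 9.45%, 1.57% and 4.47% of all genes. They were 0 for H3K4me3 in both lists and for H3K27ac, against 5.91%, 7.54% and 2.47% of all genes. With the gene body alone, they were 30.8% for rescue H3K9me3, against 49.2% of all genes. They were 1.54% for H3K4me3 in both lists and 3.85% for H3K27ac, against 76.5%, 77.7% and 61.2% of all genes. With the stronger 50% of each list, they were 18.5% and 36.9% for original and rescue H3K27me3, against 32.7% and 48.4% of all genes. They were 3.08% and 3.85% for H3K4me3 and 3.85% for H3K27ac, against 74.6%, 75.7% and 59.6% of all genes. The mean rescue H3K27me3 cover of the body was then 32.9%, against 22.6% over all genes, and rescue H3K27me3 covered 9.99% of cluster 1. The side of the all-gene value on which the members' share lay turned in 7 of 28 alternatives for the histone marks. At 2500 bp the members were below all genes for original H3K27me3 and both H3K9me3 lists. They were above with 50% of the window covered for all 3, with windows of 10000 bp for both H3K9me3 lists, and with the stronger 50% for original H3K9me3 (25.4%, against 22.0%). Rescue H3K27me3 was above at 2500 bp and below with the stronger 50%. The mean cover of the body or window was above that of all genes in all 12 alternatives for it.

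The lists give what passed the authors' thresholds, so a gene at 0 is not a gene without signal. Near-identical receptor copies can share reads, and their treatment is not known here. WT values come from 1 clone.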
